A study of Quercus x morisii and Quercus suber and Quercus ilex with 16 samples.

Results

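Reference genes are genes whose transcripts are measured beside a gene of interest so that differences in RNA input can be divided out, and the 200 loci described here are the ones whose transcript level varied least over the outer bark of cork oak, of holm oak and of hybrids between them. They were chosen from 47292 loci in 2 steps. A locus had to have a mean regularized log2 count (rlog, in which a difference of 1 is a 2-fold difference) of at least 10 over the 16 libraries, which left 6100 loci. These were then ordered by a score, the rlog of the highest library minus that of the lowest, and the 200 lowest scores were taken, or 3.28% of the loci that passed the filter. Every library was used in the choice, so the scores and bark levels of the 200 loci are given as a description and carry no test.

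Cork (*Q. suber*), rhytidome-like bark (natural F1 hybrids of *Q. ilex* and *Q. suber*) and rhytidome (*Q. ilex*) were each sampled from 4 adult trees, on the south side of the trunk, and gave 1 library per tree. For cork-like bark, 1 hybrid tree, a backcross with *Q. suber*, was sampled on each of the 4 sides of its trunk, so its 4 libraries show the spread within a tree and p-values that involve it do not cover variation between trees. All trees grew wild in a mixed forest in Extremadura, Spain, and the RNA was taken from the inner face of the outer bark, including virgin cork (the first cork a tree makes). Libraries are named below by bark and tree number, or by bark and side for cork-like bark, where 1 is north, 2 south, 3 east and 4 west.

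Outer bark is made by the phellogen, a layer of dividing cells that produces phellem, whose walls are filled with suberin and waxes. In cork oak a single phellogen stays active for the life of the tree and gives a thick, even layer of phellem. In rhytidome, new phellogens form deeper in the bark and cut off layers of old phloem together with thin bands of phellem. The barks therefore differ in the mix of cells they hold as well as in what each cell transcribes, and in whole-bark RNA fewer cells of a type and less RNA per cell cannot be told apart. No detection limit was set for phellem loci. The 7 looked at lay above the median of all 47292 loci in every library, but 1 of the 2 *FAR4* loci (LOC112008996) came close to it. In rhytidome-like 14 and 21 that locus had 1.63 and 1.55 rlog, against medians of 1.31 and 1.47. The 7 loci matched to suberin and wax enzymes (*GPAT5*, *CYP86B1*, 2 of *ASFT/FHT*, *KCS2* and 2 of *FAR4*) had bark means between 6.14 and 16.94 rlog in cork, 6.65 and 15.86 in the cork-like bark, 2.63 and 11.04 in the rhytidome-like bark and 5.86 and 14.32 in rhytidome, while the vascular locus *BAM3* (LOC112030870) averaged 4.98, 8.01, 12.44 and 11.46 rlog in the same order. The other vascular locus, *HB-8* (LOC112029705), averaged 12.49, 12.82, 10.34 and 11.97 rlog. The study had picked these marker loci from these libraries, and the part of cell makeup in the levels of the 200 loci was not tested.

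The scores of the 200 loci ran from 0.28 to 0.68, with a median of 0.60. On a linear scale the highest library was 1.21-fold the lowest for the steadiest locus, 1.51-fold for the median one and 1.6-fold for the last one taken. Scores under 0.5 were held by 43 of the 200. Over all 6100 loci that passed the filter, the median score was 1.64, or 3.12-fold, and the highest was 10.30. Of those loci 1012 (16.6%) had a score under 1 and 2206 (36.2%) a score over 2. There was no gap in the scores at the 200th locus. The last locus taken, LOC112006674, had a score of 0.680 and the first left out, LOC112020916, had 0.682.

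**Figure D1:**
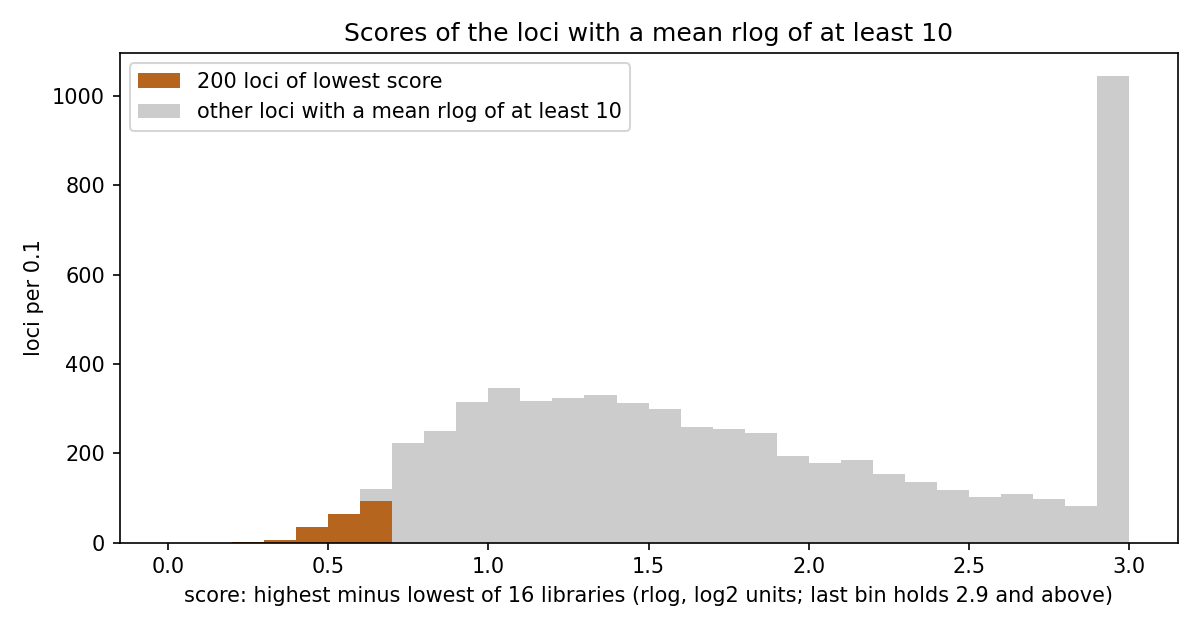
Number of loci (vertical axis) in score bins of 0.1 rlog (horizontal axis) for the 200 loci of lowest score (brown, at the bottom of the stack) and the other loci that averaged at least 10 rlog (grey); the last bin gathers all scores of 2.9 and above. The 200 loci fill the left edge up to 0.68 with no gap to their neighbours, while the median over all 6100 loci is 1.64.

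LOC112039673 had the lowest score of all, 0.28. Its rlog was 12.41, 12.46, 12.45 and 12.41 in cork 87, 89, 90 and 91, and 12.37, 12.52, 12.46 and 12.39 in cork-like 1 to 4. Rhytidome-like 14, 18, 20 and 21 had 12.25, 12.37, 12.24 and 12.35, and rhytidome 33, 67, 68 and 94 had 12.35, 12.27, 12.29 and 12.43. As deposited, cork-like 2 was the highest library and rhytidome-like 20 the lowest, and the 4 cork libraries all lay above those of rhytidome-like bark. With each library centred on the median of the 6100 loci, rhytidome-like 18 and 21 lay above the cork libraries.

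LOC111997757 had the second lowest score, 0.33, at a lower level. Its rlog was 10.04, 10.01, 10.07 and 10.07 in cork 87, 89, 90 and 91, and 10.21, 10.17, 10.33 and 10.33 in cork-like 1 to 4. Rhytidome-like 14, 18, 20 and 21 had 10.35, 10.30, 10.14 and 10.08, and rhytidome 33, 67, 68 and 94 had 10.08, 10.05, 10.32 and 10.08. All 4 cork libraries lay below all 4 cork-like ones, and rhytidome 68 stood above the other rhytidome libraries.

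The next 4 loci by score, given here by their ID after their values were seen, were LOC112019248 (score 0.34), LOC112040106 (0.35), LOC111998759 (0.36) and LOC112000311 (0.37). Their mean levels were 12.06, 10.62, 12.53 and 11.10 rlog. They varied in different ways. LOC112019248 had 74.2% of its sum of squares between the 4 barks: it averaged 12.17 ± 0.05 rlog in cork, 11.91 ± 0.06 in the cork-like bark, 12.14 ± 0.05 in the rhytidome-like bark and 12.03 ± 0.10 in rhytidome (SD, n = 4 libraries each). LOC112000311 had 8.38% between barks, with averages of 11.10 ± 0.11 in cork, 11.06 ± 0.04 in the cork-like bark, 11.08 ± 0.14 in the rhytidome-like bark and 11.15 ± 0.17 in rhytidome (SD, n = 4 libraries each), so what little spread it had lay among libraries of the same bark.

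A gene name could be given to 1 of the 200 loci. Names were taken from the Arabidopsis matches in the study's tables, which could be read for 923 loci, and 185 of those were among the 6100 that passed the filter. The readable rows over-represent loci that the study had singled out as differing between barks, so the single name says little about the makeup of the 200. The other 199 are known here only by their locus ID, no function is given to them, and no sequence is shown since none was at hand for these loci. A protein ID stood beside 199 of the 200 (99.5%), against 99.1% of the 6100 loci that passed the filter and 97% of all 47292.

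The named locus was LOC111983695, matched to the Arabidopsis gene for the exocyst subunit *SEC10* (AT5G12370). The exocyst is a complex of proteins that tethers secretory vesicles to the plasma membrane before they fuse with it, a step that growing and wall-building plant cells use to deliver membrane and wall material. This locus ranked 97th with a score of 0.59. Its rlog was 11.81, 11.88, 11.83 and 11.86 in cork 87, 89, 90 and 91, against 11.41, 11.31, 11.53 and 11.28 in cork-like 1 to 4. Rhytidome-like 14, 18, 20 and 21 had 11.56, 11.69, 11.58 and 11.39, and rhytidome 33, 67, 68 and 94 had 11.47, 11.48, 11.41 and 11.71. As deposited, all 4 cork libraries lay above all 12 others, and the remaining barks overlapped. The difference of bark means, 11.84 ± 0.03 in cork against 11.39 ± 0.11 in the cork-like bark (SD, n = 4 libraries each), was 0.46 and was the second largest of the 200 loci in this comparison. As deposited, this locus therefore separated cork completely while changing by only 1.51-fold in all. With each library centred on the median of all loci past the filter, rhytidome 94 lay above the 4 cork libraries. The complete separation of cork thus depended on the scaling.

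Other named loci of membrane traffic passed the filter without reaching the 200. Of 11 named loci of this list, 5 passed, the *SEC10* locus included, and their median score was 1.04, against 1.64 over all 6100. A locus matched to *VAMP726*, a SNARE protein of secretory vesicles, LOC112013960, ranked 460th with a score of 0.80 and bark means of 10.03 ± 0.18 rlog in cork, 10.33 ± 0.18 in the cork-like bark, 10.14 ± 0.20 in the rhytidome-like bark and 9.96 ± 0.24 in rhytidome (SD, n = 4 libraries each), with an adjusted p of 0.152 in limma's F-test among barks. The 2 other loci with this match behaved differently. LOC112040096 ranked 1913th, with means of 13.34 and 13.51 rlog in cork and the cork-like bark against 12.65 and 12.68 in the rhytidome-like bark and rhytidome (limma, adjusted p = 8.61e-06). LOC112009307 ranked 4480th, with 13.94 and 14.81 rlog in cork and the cork-like bark against 15.85 and 14.48 in the rhytidome-like bark and rhytidome (limma, adjusted p = 1.40e-07). Syntaxin of plants 32 (LOC111983024), a SNARE of the Golgi, ranked 1142nd, with 11.83 and 11.82 rlog in cork and the cork-like bark against 11.06 and 11.33 in the rhytidome-like bark and rhytidome (limma, adjusted p = 1.56e-05).

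The families from which reference genes are usually drawn were looked up among the named loci. No locus named as actin, elongation factor 1-alpha, GAPDH, polyubiquitin, cyclophilin, AP-2, SAND, YLS8 or histone H3 could be read from the tables, so nothing can be said of these. The named loci of the TIP41-like, ubiquitin-conjugating E2, protein phosphatase 2A and eIF4A families fell below the filter. The nearest to it was a regulatory B subunit of protein phosphatase 2A (LOC111983022), which removes phosphate groups from proteins, with a mean of 9.91 rlog and a score of 1.46. It averaged 10.35 ± 0.08 rlog in cork and 10.26 ± 0.14 in the cork-like bark against 9.27 ± 0.24 in the rhytidome-like bark and 9.74 ± 0.06 in rhytidome (SD, n = 4 libraries each), and the barks differed (limma, adjusted p = 6.72e-06).

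Of the 14 families looked up, 5 had a readable locus, and among these tubulins, the subunits of microtubules, had loci past the filter. Of 7 loci named as tubulins, 3 passed the filter and none was among the 200. Whether any of the 199 unnamed loci is a tubulin is not known here. The study used the tubulin beta-2 locus LOC112004091 to normalize its RT-qPCR. It reported a positive correlation between the log2 fold changes from RT-qPCR and those from sequencing, and the RT-qPCR values were not examined here. In the libraries, LOC112004091 ranked 5648th of 6100 with a score of 4.04, a 16.5-fold span. Its rlog was 14.95, 15.16, 15.85 and 15.06 in cork 87, 89, 90 and 91, and 15.73, 15.55, 15.41 and 15.65 in cork-like 1 to 4. Rhytidome-like 14, 18, 20 and 21 had 11.94, 11.81, 13.12 and 12.44, and rhytidome 33, 67, 68 and 94 had 13.84, 13.17, 13.53 and 13.57. All 8 libraries of cork and cork-like bark lay above all 8 of rhytidome-like bark and rhytidome, and the 4 rhytidome libraries lay above the 4 rhytidome-like ones. The bark means were 15.25 ± 0.41, 15.59 ± 0.14, 12.33 ± 0.59 and 13.53 ± 0.27 rlog in cork, cork-like bark, rhytidome-like bark and rhytidome (SD, n = 4 libraries each). They differed by up to 3.26 (limma's F-test over 25617 loci, adjusted p = 8.88e-08), and the adjusted p stayed between 1.26e-08 and 1.78e-05 over 22 alternative fits.

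A tubulin alpha-4 locus, LOC112004381, also differed among barks. It averaged 16.24 ± 0.20 rlog in cork and 16.23 ± 0.29 in the cork-like bark against 15.55 ± 0.62 in the rhytidome-like bark and 14.33 ± 0.57 in rhytidome (SD, n = 4 libraries each), with an adjusted p of 1.04e-04 in limma. The steadiest of the named tubulins past the filter, the alpha-4 locus LOC111995722, still ranked 4544th with a score of 2.39. Its means of 13.05 ± 0.11 rlog in cork, 13.37 ± 0.25 in the cork-like bark, 13.30 ± 0.67 in the rhytidome-like bark and 12.69 ± 0.73 in rhytidome (SD, n = 4 libraries each) gave an adjusted p of 0.228 in limma, and its spread lay within barks. Reads that map to several places were dropped by the authors, so loci of near-identical tubulin copies are uncertain.

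Of the loci named as ribosomal proteins, components of the ribosome, those of S30 and L35Ae passed the filter and neither was among the 200. Another 2 loci past the filter carry the mixed family name ribosomal protein S5/elongation factor G, also outside the 200, and are not counted here as ribosomal proteins. The S30 locus LOC111982974 came closest, at rank 745 with a score of 0.92 and bark means of 11.68 ± 0.16 rlog in cork, 11.82 ± 0.24 in the cork-like bark, 12.06 ± 0.31 in the rhytidome-like bark and 11.72 ± 0.10 in rhytidome (SD, n = 4 libraries each; limma, adjusted p = 0.123). The L35Ae locus LOC111983043 had 13.09 and 13.35 rlog in cork and the cork-like bark against 14.18 and 13.32 in the rhytidome-like bark and rhytidome (limma, adjusted p = 6.15e-05). The list of cell wall, lignin and suberin loci, drawn up by words in their names, had 12 loci past the filter, none among the 200 and scores between 2.12 and 8.39 (median 6.86). Glycosyl hydrolase 9A1 (LOC112027607), a cell wall enzyme that these words did not catch, had a score of 1.78 at rank 3408 and is named after its value was seen. The study had picked many loci of this list because they differed between barks.

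**Figure D2:**
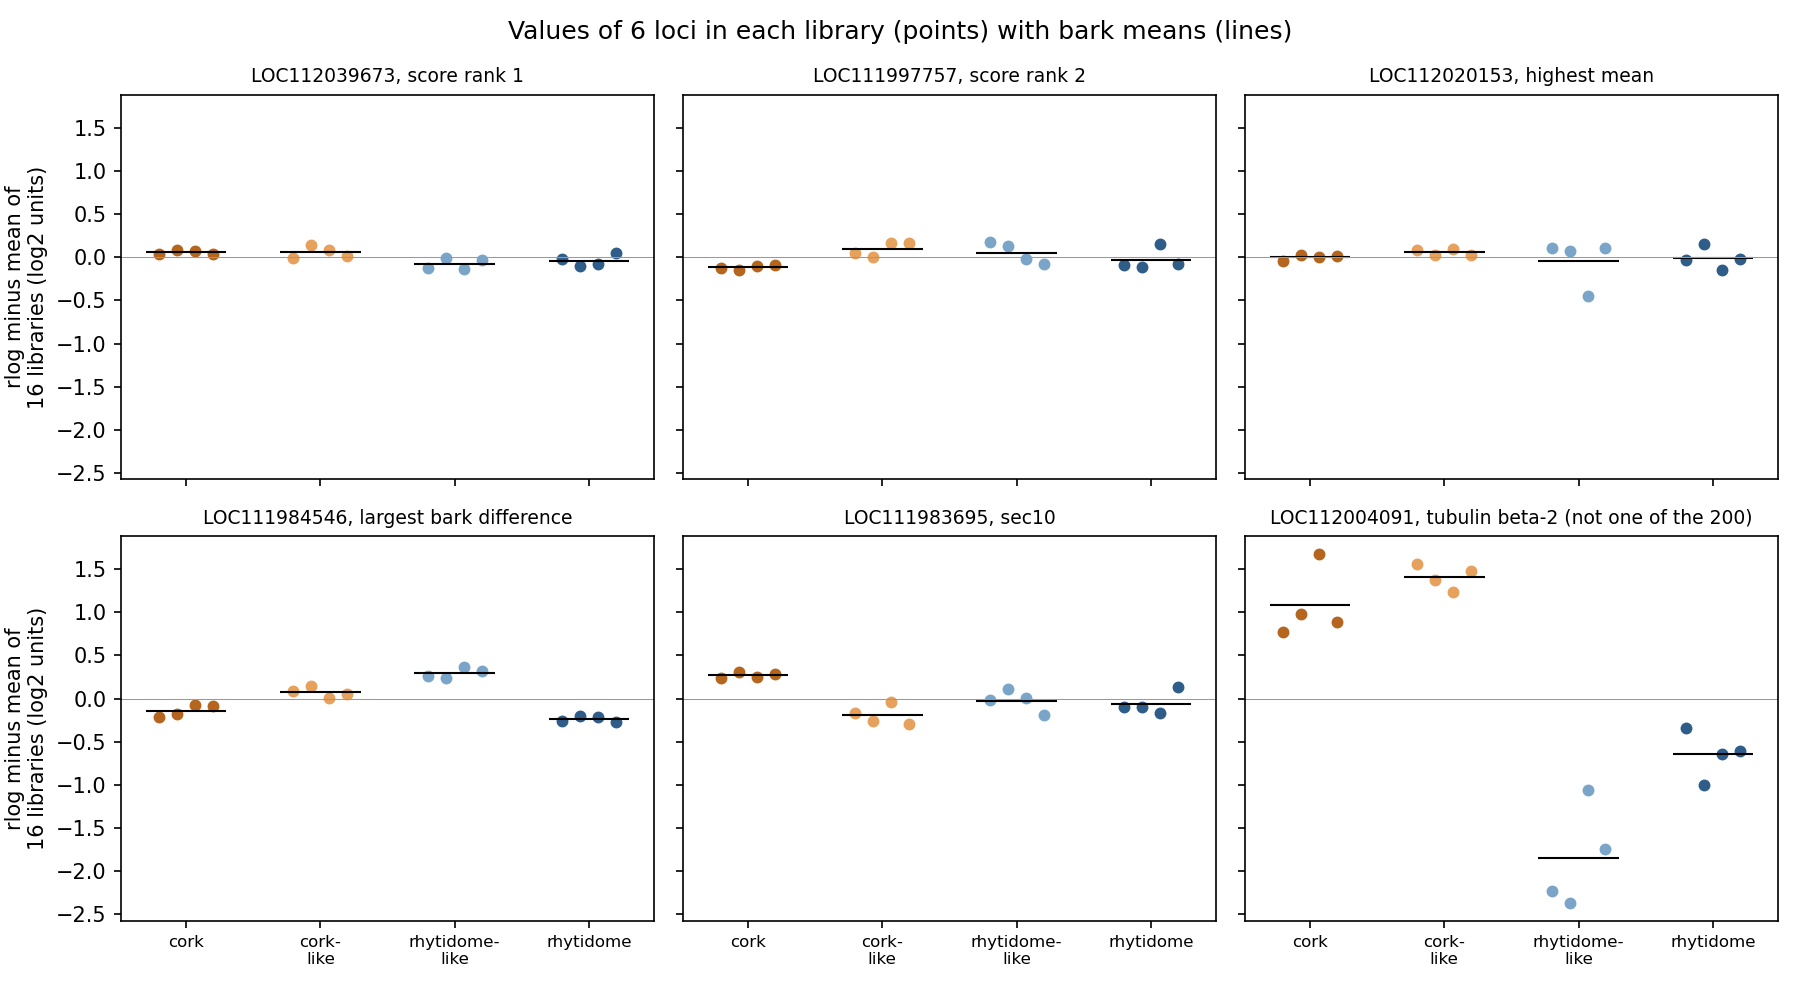
rlog minus the mean of the locus over 16 libraries (vertical axis, log2 units, 1 scale for all panels) in each library (points) with bark means (black lines), for 5 of the 200 loci and for the tubulin beta-2 locus used in RT-qPCR. The 5 loci span 0.28 to 0.64, while tubulin beta-2 spans 4.04, with cork and cork-like bark above rhytidome-like bark and rhytidome.

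The median level of the 200 loci was slightly above that of all loci past the filter, but they were rare among the most abundant transcripts. Their mean rlog ran from 10.01 to 14.14 with a median of 11.32, against a highest value of 18.31 and a median of 11.18 for all 6100. They made up 2.96% of the loci between 10 and 11 rlog (78 of 2639), 3.90% of those between 11 and 12 (75 of 1921) and 4.46% of those between 12 and 13 (45 of 1010). Above 13 rlog they were 2 of 530, or 0.377%. The median score of the loci in this top class was 1.99, against 1.56 to 1.66 in the 3 lower classes.

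The most abundant of the 200 was LOC112020153, with a mean of 14.14 rlog and a score of 0.60. Its rlog was 14.10, 14.17, 14.14 and 14.16 in cork 87, 89, 90 and 91, and 14.23, 14.16, 14.24 and 14.17 in cork-like 1 to 4. Rhytidome-like 14, 18, 20 and 21 had 14.24, 14.21, 13.69 and 14.25, and rhytidome 33, 67, 68 and 94 had 14.11, 14.29, 14.00 and 14.12. Rhytidome-like 20 lay below the other 15 libraries and set the score, which was 0.29 without it. The score was 0.83 with median centring and 1.68 with quantile normalization, so the steadiness of this locus depends on the scaling as deposited. The barks overlapped, with 7.46% of the sum of squares between them. Its level was close to that of tubulin beta-2 on the rlog scale, which is not corrected for transcript length.

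The sum of squares of the 200 loci was divided about evenly between and within barks. With 4 barks of 4 libraries, spread among libraries alone would put less than an even share between barks. That level does not allow for the choice of the loci in these same libraries. It also takes the 4 cork-like libraries, which share a tree, as separate, so nothing is read from it. The share of the sum of squares between barks ran from 4.43% to 94.6% with a median of 51.3%, against a median of 77% over all 6100 loci, and it was over 50% for 105 of the 200 (52.5%) and for 83.2% of the 6100. The SD within a bark, pooled over barks, had a median of 0.13 rlog in the 200 loci and 0.25 in the 6100, while the SD of the 4 bark means had medians of 0.13 and 0.45. The low scores thus went with smaller values of both, and the gap was larger for the differences between barks. The highest and the lowest library belonged to the same bark for 16 of the 200 loci (8%) and for 3.23% of the 6100.

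Within barks, the range over the 4 libraries had a median of 0.19 rlog in cork, 0.23 in the cork-like bark, 0.31 in the rhytidome-like bark and 0.30 in rhytidome for the 200 loci, against 0.35, 0.33, 0.65 and 0.57 for the 6100. The widest range was in rhytidome for 78 of the 200, in the rhytidome-like bark for 76, in the cork-like bark for 26 and in cork for 20, and for the 6100 it was in rhytidome for 32%, in the rhytidome-like bark for 47.3%, in the cork-like bark for 10.7% and in cork for 10%. The cork-like libraries share a tree, whereas the 4 cork libraries come from 4 trees and had a median range no wider than theirs in the 200 loci.

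LOC111984546 had the largest difference of bark means among the 200. Its rlog was 11.07, 11.10, 11.20 and 11.19 in cork 87, 89, 90 and 91, and 11.37, 11.43, 11.28 and 11.34 in cork-like 1 to 4. Rhytidome-like 14, 18, 20 and 21 had 11.54, 11.52, 11.65 and 11.60, and rhytidome 33, 67, 68 and 94 had 11.02, 11.07, 11.07 and 11.01. Rhytidome-like bark lay above cork-like bark, which lay above cork and rhytidome, with no overlap between these steps. The mean of 11.58 ± 0.06 in the rhytidome-like bark exceeded the 11.04 ± 0.03 in rhytidome by 0.53 (SD, n = 4 libraries each), and 94.6% of the sum of squares lay between barks. Over the 200 loci the largest difference between any 2 bark means had a median of 0.29, against 1.01 for all 6100.

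In limma's F-test of the 4 bark means, with an adjusted p under 0.01 over all loci that averaged at least 1 rlog, 20 of the 200 loci were called, against 59.1% of all loci tested and 73.4% of the 6100. The rule had chosen the loci for small differences in the same libraries, so nothing is read from this count. None of the 20 reached the difference above 1 that the study required of a differentially expressed gene, which their scores did not allow.

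**Figure D3:**
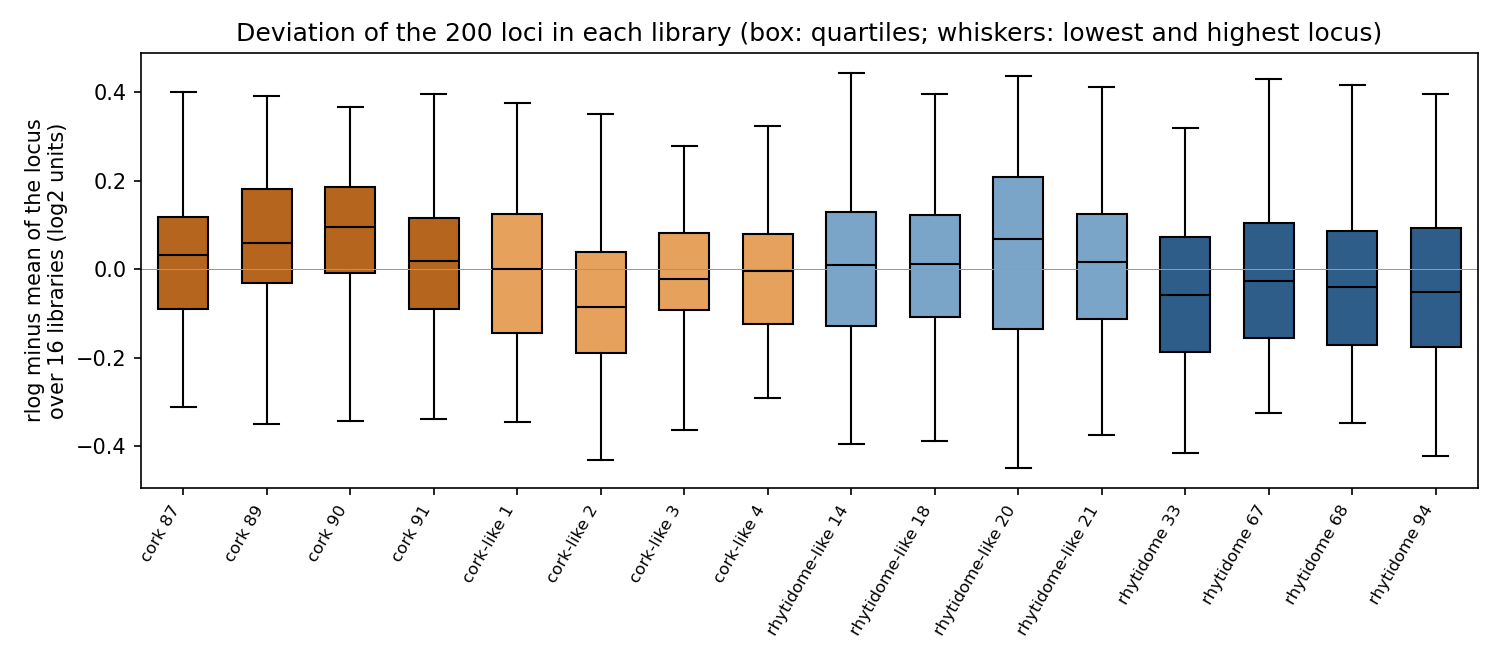
Deviation of the 200 loci from their own mean over 16 libraries (vertical axis, rlog, log2 units) in each library (horizontal axis); boxes are quartiles, lines medians and whiskers the lowest and highest locus. The boxes of cork sit slightly above 0 and those of rhytidome slightly below, and rhytidome-like 20 has the widest spread.

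The mean of the 200 loci differed little between barks. Their mean rlog was 11.38 ± 0.03 in cork, 11.31 ± 0.03 in the cork-like bark, 11.35 ± 0.02 in the rhytidome-like bark and 11.29 ± 0.02 in rhytidome (SD, n = 4 libraries each), and ran from 11.26 in cork-like 2 to 11.42 in cork 90. Cork was above rhytidome in 138 of the 200 loci, with a median difference of 0.10, and above cork-like bark in 128, with a median difference of 0.08. Over the 6100 loci these comparisons gave 61% higher with a median of 0.19 and 59.1% higher with a median of 0.13. This direction depended on the scaling. The median of the 6100 loci itself ran from 11.13 in rhytidome 33 to 11.40 in cork 90, a shift of 0.26. When each library was centred on that median, cork was above rhytidome in 48 of the 200 loci, with a median difference of -0.11, and above cork-like bark in 83, with -0.04, and quantile normalization gave 51 loci with -0.14 and 77 loci with -0.06. No direction can therefore be given for the 200 loci between these barks.

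The other 4 comparisons had smaller medians under the deposited scaling. Cork minus rhytidome-like bark had a median of 0.04, cork-like bark minus rhytidome 0.01, rhytidome-like bark minus rhytidome 0.06 and cork-like minus rhytidome-like bark -0.05. The first 3 of these were negative under both other scalings, and the fourth was negative under all 3. Over all 6 comparisons, differences of single loci lay between -0.51 and 0.53. The libraries of cork and rhytidome did not overlap in 49 of the 200 loci (24.5%) and those of cork and cork-like bark in 65 (32.5%), against 51.9% and 52.5% of the 6100. These comparisons share libraries and were part of the choice, so they are given as values only.

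Averaging several of the loci left less variation than any single one. The mean of the 10 steadiest loci spanned 0.10 rlog over the 16 libraries and that of the 3 steadiest 0.12, against 0.28 for the steadiest alone. The mean of all 200 spanned 0.16 and that of the 6100 spanned 0.26. These spans come from the libraries that chose the loci and depend on the deposited scaling.

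Rhytidome-like 20 stood apart from the other libraries. It was the highest library in 15.5% of the 200 loci and the lowest in 12.5%, or an extreme in 28%, and in 36.7% of the 6100, where it was the highest in 27.1%. Next among the 200 were rhytidome 94, an extreme in 17%, and rhytidome 33, in 16.5%. With rhytidome-like 20 left out, 132 of the 200 loci were chosen again by the same rule, whereas leaving out any other single library kept 167 to 199.

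How far such a choice carries over to other barks was tested with libraries that the rule did not use. The rlog values come from a single table of all 16 libraries, so the libraries used for the choice and those held out may share their scaling. The rule was applied to the 8 libraries of cork and rhytidome alone, and the 200 loci it gave were measured in the 8 libraries of cork-like and rhytidome-like bark. Their median score there was 0.74, against 0.32 in the libraries that chose them and 1.21 for all 6097 loci that passed the filter in the hybrid libraries. A score under 1 was kept by 140 of the 200 (70%), against 37.8% of all loci past the filter. The highest score was 2.09. The median absolute difference between cork-like and rhytidome-like bark was 0.33, against 0.60 for the loci past the filter.

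Of these 200 loci 49 (24.5%) differed between cork-like and rhytidome-like bark (limma, adjusted p under 0.01), 5 higher and 44 lower in the cork-like bark, against 34% of all loci tested and 43.1% of those past the filter. With the study's further limit of a difference above 1, 14 of the 200 (7%) were called, against 27.5% of the loci past the filter. The split by direction depends on the scaling, since median centring gave 12 higher and 32 lower and quantile normalization 13 higher and 33 lower. Without cork-like 2 or without cork-like 4 the count was 28, with a background of 25.2% and 25%.

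The rule applied to the 8 hybrid libraries gave 200 loci that were then measured in cork and rhytidome. Their median score there was 0.68, against 0.34 in the libraries that chose them and 1.06 for all 6216 loci past the filter in cork and rhytidome. A score under 1 was kept by 150 of the 200 (75%), against 46.4%, and the highest score was 2.43. Between cork and rhytidome, 58 (29%) differed (limma, adjusted p under 0.01), 46 higher and 12 lower in cork, against 31% of all loci tested and 38.2% of those past the filter. That share is near the share of all loci tested. With a difference above 1, 9 (4.50%) were called, against 21.4% of those past the filter. Median centring gave 32 higher and 21 lower, and quantile normalization 29 higher and 20 lower.

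**Figure D4:**
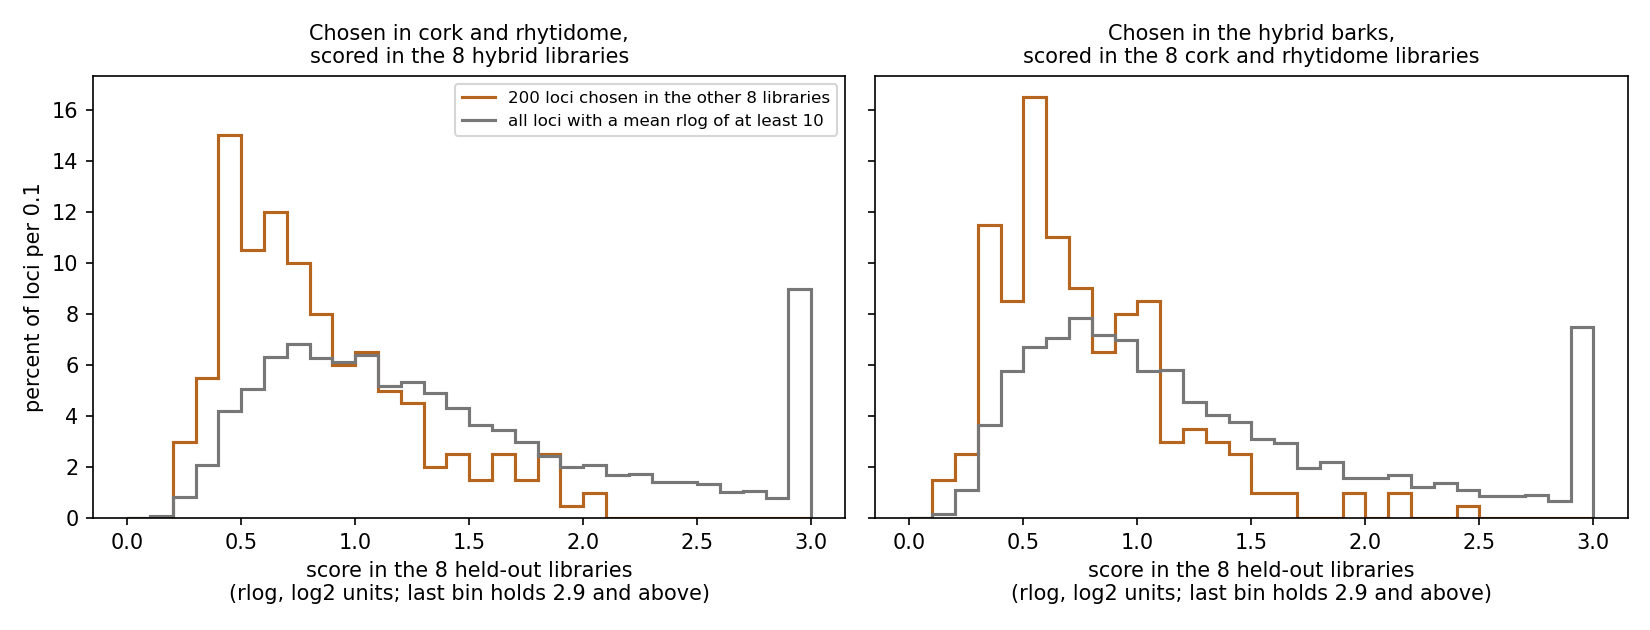
Percent of loci (vertical axis) per bin of 0.1 in the score over 8 held-out libraries (horizontal axis, rlog, log2 units; the last bin gathers 2.9 and above) for 200 loci chosen in the other 8 libraries (brown) and for all loci that averaged at least 10 rlog in the held-out libraries (grey). The chosen loci lie to the left, with median scores of 0.74 against 1.21 in the hybrid barks and 0.68 against 1.06 in cork and rhytidome, but reach up to 2.09 and 2.43.

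The choices from the parent species and from the hybrids shared 18 loci, 9% of each list of 200. Of the 200 loci chosen in all 16 libraries, 58 were chosen from cork and rhytidome alone and 65 from the hybrid barks alone, and 15 were in both. These 15 held all of the 8 lowest scores, among them LOC112039673, LOC111997757, LOC112019248, LOC112040106, LOC111998759 and LOC112000311. A score over 8 libraries cannot exceed the score over all 16. The highest score taken was 0.365 in cork and rhytidome and 0.405 in the hybrid barks. The loci named here, except LOC112000311, scored below both over 16 libraries. They were therefore bound to be chosen in each part, and nothing is read from it. The 15 also held LOC111984546, which has a small range within the parents and within the hybrids and a difference between rhytidome-like bark and rhytidome, so a low score in both subsets does not exclude a difference between them.

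Other ways of scoring gave partly other loci. Of the 200, 158 were among the 200 lowest by SD and 121 among the 200 lowest by the geNorm measure M, the mean SD of the log2 ratio of a locus to every other candidate, which does not depend on how the libraries are scaled. Median centring kept 129, quantile normalization 108 and averaging the cork-like libraries to 1 kept 152. The loci kept in all 5 of these and with each of the 16 libraries left out numbered 64, and 11 of them were also chosen in the parents and in the hybrids separately. The *SEC10* locus was kept with every library left out but not under all of the other choices. LOC112039673, LOC111997757, LOC112019248, LOC112040106, LOC111998759 and LOC112000311 were among the 11. For all of these but LOC112000311, the choice in the parents and in the hybrids followed from the score over 16 libraries. The score of LOC112039673 was 0.42 with median centring and 0.61 with quantile normalization, against 0.28 as deposited, and that of LOC111997757 was 0.53 and 0.46, against 0.33.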

How the data were processed

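Outer bark RNA was measured in 16 libraries, 4 for each bark. Reads were trimmed by the authors (Trimmomatic 0.40) and mapped with GSNAP to CorkOak1.0, the genome of cork oak. This genome also served for the reads of holm oak and of the hybrids. Any effect of that on the scores and on differences between barks was not tested. The authors kept unique concordant pairs and used Cufflinks 2.2.1, HTSeq 0.11.1 and DESeq2 1.38.3 for the consensus transcriptome, counts and comparisons. The deposited values are regularized log2 (rlog) counts of 47292 loci, scaled for depth by the authors. They cannot be turned back into counts, so no counting error is given per locus; the read totals that the study gives per library were not used here, and the sources used here do not give the strand setting.

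Scores, shares and bark means (arithmetic means of rlog) were computed in Python with numpy and pandas. limma 3.58.1 in R 4.3.3 was fitted with a variance trend over the 25617 loci averaging at least 1 rlog, or over those passing the same limit in 8 libraries for the held-out tests, with Benjamini-Hochberg adjustment. The test was first tried on simulated data. The 200 loci, gene lists and tests were chosen with earlier results of these data known. By rule, the text names loci with a name in the study's tables, 2 unnamed loci of lowest score, the highest mean, the largest bark difference, the neighbours of the threshold and the RT-qPCR tubulin. LOC112019248, LOC112040106, LOC111998759 and LOC112000311 were singled out after their values were seen. Of the named lists, kinases (7 loci past the filter), DNA-binding transcription factors (20), stress and defence (2), translation factors (2, both also matched by the ribosomal protein list), splicing (1), transcription machinery (1) and chromatin (1) had no locus among the 200, the named loci of ubiquitin ligation and nuclear transport fell below the filter, and no proteasome locus could be read. A planned look at protein and promoter sequences was not run for want of a reference. Alternatives changed the filter, score, scaling, variance trend, the weight of the cork-like tree and left out each library.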

Additional observations from a re-analysis of the deposited data

Results flagged for a closer look

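In 88 groups of 4 libraries (21 named loci and the mean of the 200 loci, in each bark), the gap between the most extreme library and its nearest neighbour was compared with the range of the group. It exceeded the limit of 0.829 (Dixon's 95% critical value) in 6 of them. Chance gives about 1 in 20 groups, and 6 of 88 is near that rate. The groups share libraries, the mean of the 200 includes loci also taken singly, and many loci were chosen for a small range. The 6 are therefore listed as values only.

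LOC112020153, the most abundant of the 200 loci, had 13.69 rlog in rhytidome-like 20, against 14.21 to 14.25 in the other 3 rhytidome-like libraries. The mean of the 200 loci was 11.37 rlog in the same library, against 11.34 in each of the other 3, and 11.26 rlog in cork-like 2, against 11.32 to 11.33 in the other cork-like libraries. LOC111997757 had 10.32 rlog in rhytidome 68, against 10.05 to 10.08 in the other rhytidome libraries. LOC112019248 had 12 rlog in cork-like 4, against 11.87 to 11.89, and LOC111998759 had 12.29 rlog in cork-like 1, against 12.54 to 12.59 in the other cork-like libraries.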

How the results depend on the processing

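Of the 200 loci, a filter of at least 12 rlog kept 47, which is every one above that limit, a score from the 4 bark means 92, geNorm M 121, median centring 129, quantile normalization 108, cork and rhytidome alone 58 and the hybrid barks alone 65. Leaving out a library kept 132 to 199. The 20 loci called among barks became 44 with no filter, 3 with no variance trend, 32 with median centring, 39 with quantile normalization and 2 with the cork-like libraries averaged to 1. They ranged from 7 to 29 with a library left out, and were 10 without cork 87 or cork-like 1, 11 without cork 89, cork 90 or cork-like 4, 12 without cork 91, rhytidome-like 14 or rhytidome-like 18, 13 without rhytidome 33 and 7 without cork-like 2. With no variance trend, the held-out counts were 30 of the loci chosen in the parents and 38 of those chosen in the hybrids. With a library left out they ranged from 28 to 55 and from 41 to 58. Apart from that filter, the cause of these changes was not tested. The counts under the other alternatives stayed within 1.5 times the values reported. Of 378 recomputed scores of the 21 named loci, 354 moved by less than 1 SD within barks and 24 by more. Most of the 378 could not move, since leaving out a library that is neither highest nor lowest returns the same score. The count therefore says little about how steady the scores are. No paired analysis was possible because tree numbers are not shared between barks. The rlog draws low values toward the mean, counting error per locus cannot be given, and cork-like bark is 1 tree.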
